A study of Mus musculus with 4 samples.

Results

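The imprinted Dlk1-Meg3 cluster of mouse chromosome 12 was examined here through its CpG methylation. Its 5 genes, *Dlk1*, *Meg3*, *Rtl1*, *Rian* and *Mirg*, were taken from GENCODE M21, and the interval ran from 10 kb upstream of *Dlk1* to 10 kb past the end of *Mirg* (mm10, chr12:109442823-109759460, 316.6 kb). The interval holds 4030 CpGs in the mm10 sequence, of which 1576 were listed in at least 1 library and 432 in all 4 libraries. Those 432 sites are part of 1545651 sites of the genome listed in all 4 libraries, and levels below are means over such sites unless stated otherwise.

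The data are reduced representation bisulfite sequencing (RRBS) libraries, in which DNA is cut with *Msp*I at CCGG and bisulfite turns unmethylated cytosines into bases read as thymine. Each value is the percent of reads that kept the cytosine at 1 CpG. For both lines, *R1* and *Tet/Tet*, there was 1 library of ESCs and 1 of the neurons derived from them. *R1* is a wild-type mouse embryonic stem cell line, and *Tet/Tet* (*Dnmt1* tet/tet) was derived from it by knock-in of tet-off constructs behind the promoter of *Dnmt1*, the maintenance DNA methyltransferase, which this line overexpresses. *Tet/Tet* ESCs were kept with puromycin at 1 µg/ml and, by the labels, neomycin at 150 µg/ml, neither of which is given for *R1* ESCs. Neurons of both lines came from embryoid bodies of 2 days followed by 10 to 15 days of neural differentiation, without sorting in the sources used here, so other cells may be among them. Each genotype is a single line. Expression was not measured, so neither the overexpression nor the neuronal identity could be checked against marker levels here.

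With 1 library per condition there is no spread between cultures, and no test between conditions was made. An SD given below is over CpG sites of 1 library, and neighbouring sites are not replicates. The tables hold no read numbers, so the depth behind each value is unknown. A difference of at least 10 percentage points between 2 libraries is counted as higher or lower, which describes its size only. The ESC libraries came from one sequencing project and the neuron libraries from another, so cell type and project cannot be told apart. *R1* and *Tet/Tet* were in the same project within each cell type. Over the genome, the mean of the shared sites was 26.8% (*R1*) and 28.1% (*Tet/Tet*) in ESCs and 53.3% (*R1*) and 10.9% (*Tet/Tet*) in neurons. The *Tet/Tet* neuron library was thus low over the genome and not in this cluster alone.

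Imprinted genes are expressed from the chromosome of 1 parent. In this cluster the protein-coding genes *Dlk1* and *Rtl1* are expressed from the paternal chromosome, and the noncoding RNA genes *Meg3*, *Rian* and *Mirg* from the maternal one. An intergenic differentially methylated region between *Dlk1* and *Meg3* (IG-DMR) carries methylation on the paternal chromosome from the germline onward. The *Meg3* promoter gains methylation on the paternal chromosome later in development. In cultured mouse pluripotent cells the cluster is known as one whose imprint can differ between lines. The reads were not separated by parental chromosome here. A middle level from 1 methylated and 1 unmethylated chromosome therefore cannot be told apart from partial methylation of both or from a mixture of cells.

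The intergenic part was divided for this purpose. The stretch from 16 to 10 kb upstream of the *Meg3* start (chr12:109525001-109531001), where textbook knowledge places the IG-DMR, is called the IG stretch below. It is annotated as intergenic except for the first bases of *Gm27528*, a transcript with no known function, at its downstream end. It holds 149 CpGs, or 24.8 per kb, against 12.7 per kb over the interval, and 12 of them were listed in all 4 libraries. The *Meg3* promoter, within 1 kb of the start (chr12:109540001-109542001), holds 69 CpGs, or 34.5 per kb, of which 25 were listed in all 4 libraries. Gene bodies were the parts of the 5 genes more than 1 kb from a start.

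Sequences of the IG stretch and the *Meg3* promoter, shown because these parts are known for their imprinted methylation, are given from the mm10 (GRCm38) forward strand, 5′ to 3′, with the CpGs listed in all 4 libraries in capitals. The first and second lie in the IG stretch at chr12:109526678-109526737 and chr12:109528625-109528870. The third is the RefSeq promoter sequence of *Meg3* (GRCm38.p6, chr12:109540746-109541045, forward strand, the strand of the gene), from 250 bases before to 50 after its start.
IG stretch, 14.3 kb upstream of Meg3: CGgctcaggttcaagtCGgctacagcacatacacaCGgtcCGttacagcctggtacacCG
IG stretch, 12.4 kb upstream of Meg3: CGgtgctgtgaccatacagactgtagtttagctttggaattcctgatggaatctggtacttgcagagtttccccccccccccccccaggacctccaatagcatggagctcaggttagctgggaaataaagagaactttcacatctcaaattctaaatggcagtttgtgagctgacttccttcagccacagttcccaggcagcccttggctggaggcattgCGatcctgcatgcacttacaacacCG
Meg3 promoter: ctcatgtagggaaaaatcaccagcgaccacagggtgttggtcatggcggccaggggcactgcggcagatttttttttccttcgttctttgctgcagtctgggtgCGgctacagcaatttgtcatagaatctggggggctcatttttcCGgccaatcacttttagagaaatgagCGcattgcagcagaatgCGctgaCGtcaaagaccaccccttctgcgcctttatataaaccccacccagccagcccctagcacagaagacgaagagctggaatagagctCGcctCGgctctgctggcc

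The first of these held 5 sites in 60 bases, with means of 28.5% (*R1*) and 61.1% (*Tet/Tet*) in ESCs and 94.5% (*R1*) and 24.9% (*Tet/Tet*) in neurons. Its sites lay close together, from 26.0% to 31.8% in the ESCs of *R1* and from 59.3% to 62.9% in those of *Tet/Tet*. They are all the shared sites of their 1 kb tile, which was higher in *Tet/Tet* ESCs by 32.7 points. Of all 1 kb tiles of the genome, 1.13% were at or above this difference. The second held 3 sites over 246 bases, all at 0% (*R1*) or at 46.2% to 75% (*Tet/Tet*) in ESCs and at 33.3% to 53.3% (*R1*) or 0% to 11.1% (*Tet/Tet*) in neurons. These 3 sites lie outside *Msp*I fragments of 40 to 220 bp, the sizes that RRBS covers best by design. The *Meg3* promoter sequence holds 13 CpGs, of which 7 were listed in all 4 libraries, with means of 10.2%, 54.2%, 22.8% and 15.3% in the same order of libraries. In all 3 sequences *Tet/Tet* ESCs were above *R1* ESCs.

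ZFP57 is a zinc finger protein that keeps methylation at imprinted regions and binds the methylated motif TGCCGC. This motif was searched on both strands (as TGCCGC and GCGGCA, which do not overlap themselves). It occurred 38 times in the interval, 10 of them in the IG stretch and 1 in the *Meg3* promoter. Of the 6 tiles of 1 kb in the IG stretch, 4 held it, and the tile that starts 13 kb upstream of *Meg3* held 5 matches. Over the genome, 5.67% of all 1 kb tiles and 23.8% of those with at least 5 shared sites held the motif. None of the sites listed in all 4 libraries lay in a match within the IG stretch or the *Meg3* promoter, so its own methylation there could not be compared across them.

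**Figure D1:**
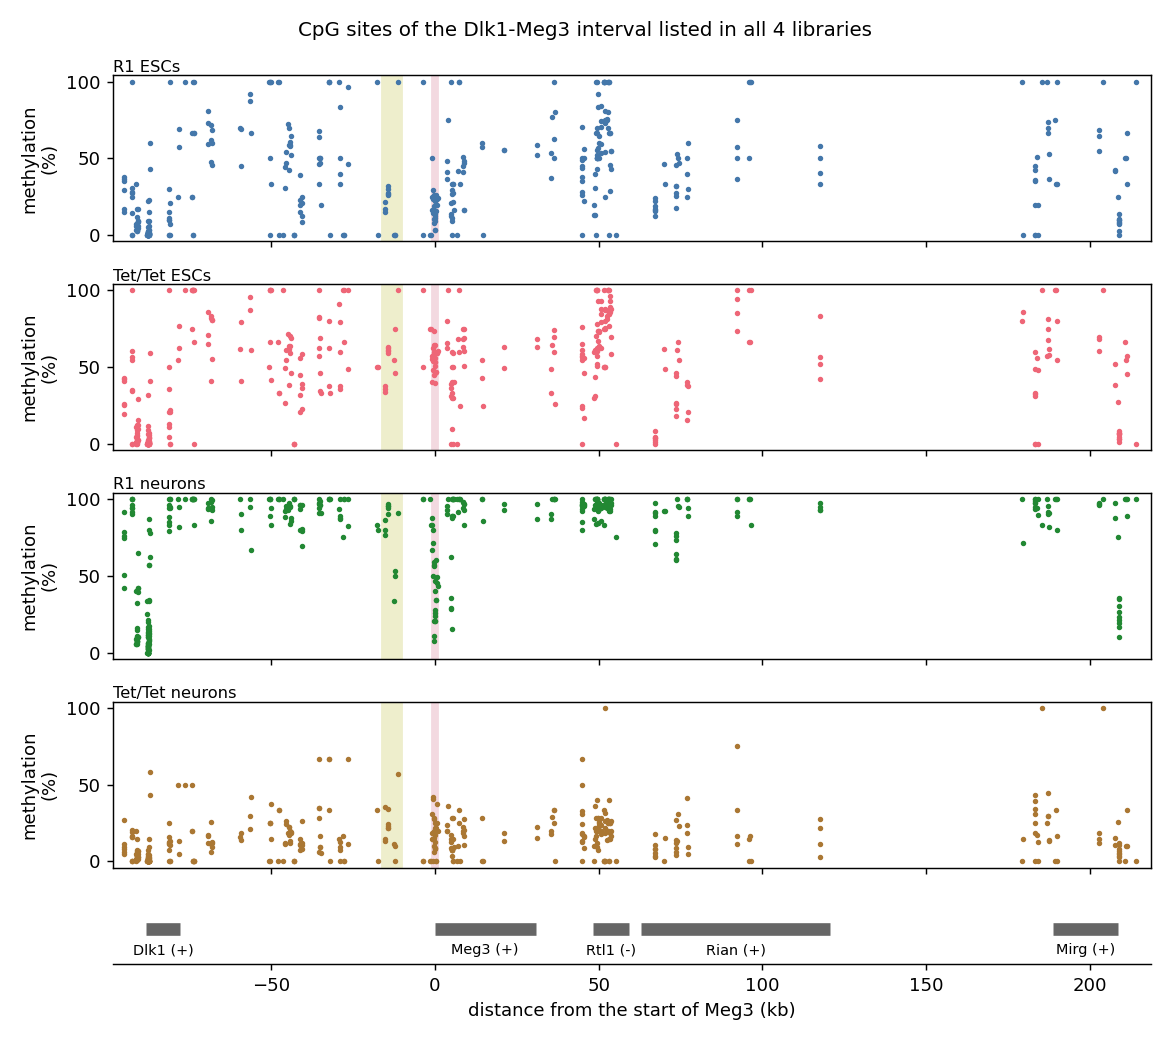
Methylation (%) of the 432 CpG sites of the interval listed in all 4 libraries, 1 point per site and 1 panel per library, against the distance from the *Meg3* start in kb. Grey bars are the 5 genes with their strand, yellow marks the IG stretch and pink the *Meg3* promoter. In *R1* neurons most points lie near the top. Many points upstream of *Dlk1* and those at its promoter, around the *Meg3* promoter and just past *Mirg* lie lower. In *Tet/Tet* neurons most points lie below 50%.

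Over the whole interval the mean was 36.8% (*R1*) and 46.1% (*Tet/Tet*) in ESCs and 73.2% (*R1*) and 14.8% (*Tet/Tet*) in neurons. Of the 432 sites, 170 (39.4%) were higher by at least 10 points in the *Tet/Tet* than the *R1* ESCs, where the share over all 1545651 sites was 15.5%. A further 43 sites (9.95%) were lower by that much, near the 10.6% of all sites. In neurons the direction was the opposite, with 367 of the 432 sites lower by at least 10 points in *Tet/Tet* than in *R1* and 1 site higher, where the shares over all sites were 60.5% and 0.801%.

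By 1 kb tile, 30 tiles of the interval had at least 5 shared sites. Between the ESC libraries, 15 of the 30 were higher in *Tet/Tet* ESCs, against 15.4% of 80233 tiles of the genome. A further 2 of the 30 were lower, against 7.53% of all tiles. Between the neuron libraries, 29 of 30 were lower in *Tet/Tet* neurons, against 79.6% of all tiles, and 0 were higher, against 0.0499%. Both the share of lower tiles in neurons, 96.7%, and that of higher tiles in ESCs, 50%, were above those of the genome. In neurons most tiles of the genome were lower as well. From *R1* ESCs to *R1* neurons 29 of 30 were higher and 0 lower, where the genome had 76.9% and 0.257%. From *Tet/Tet* ESCs to *Tet/Tet* neurons 24 of 30 were lower and 0 higher, where the genome had 54.5% and 2.56%. The median tile difference between the ESC libraries was 9.76 points in the interval and 0.517 over the genome.

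**Figure D2:**
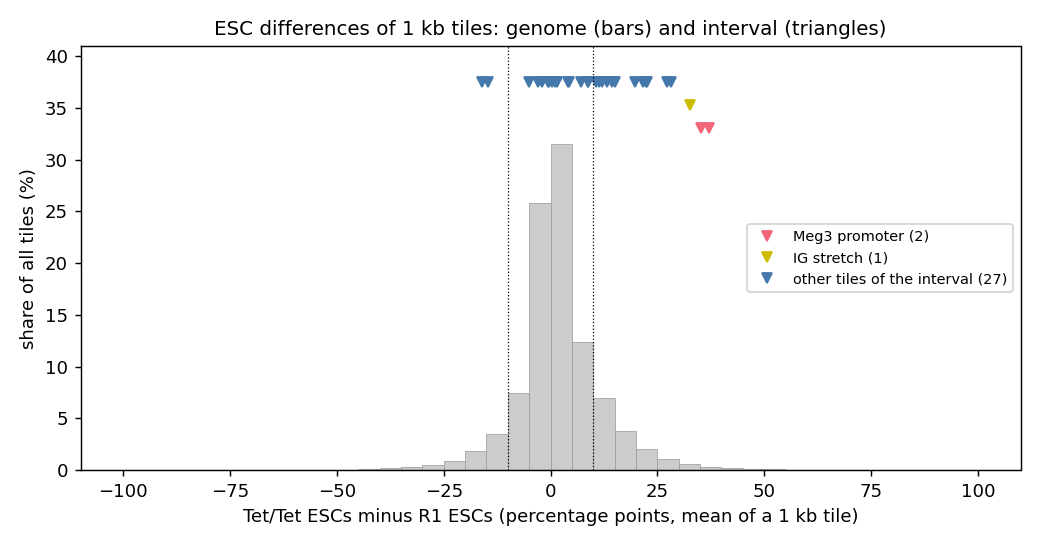
Difference of 1 kb tile means, *Tet/Tet* ESCs minus *R1* ESCs, in percentage points. Bars give the share of all 80233 tiles of the genome in steps of 5 points, triangles the 30 tiles of the interval at arbitrary heights, and dotted lines 10 points in either direction. The 3 tiles of the *Meg3* promoter and the IG stretch lie farthest to the right among those of the interval, between 32.7 and 37.0 points.

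At the *Meg3* promoter the ESC libraries differed in 1 direction at every shared site. Its 25 sites averaged 18.9% ± 9.72 (SD over sites) in the *R1* ESCs and 55.2% ± 8.25 in those of *Tet/Tet*. Among the neurons, the mean of *R1* was 45.0% ± 22.4 and that of *Tet/Tet* was 18.4% ± 12. *Tet/Tet* ESCs were thus higher than *R1* ESCs by 36.3 points, with all 25 sites higher and 24 of them by at least 10 points. Site values reached from 3.70% to 50% in the ESCs of *R1* and from 39.7% to 73.3% in those of *Tet/Tet*. All 25 sites of the *Tet/Tet* ESCs lay between 25% and 75%, which held for 5 sites of the *R1* ESCs, 16 of the *R1* neurons and 8 of the *Tet/Tet* neurons. Of all 1 kb tiles of the genome, a different unit, 47.1% had means in that range in *Tet/Tet* ESCs and 48.3% in *R1* ESCs.

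*Meg3* is a long noncoding RNA gene (ENSMUSG00000021268.17, chr12:109541001-109571726, forward strand). The 4 sites in its first exon, at 26 to 74 bases past the start, lay between 3.70% and 22.2% in the ESCs of *R1* and between 39.7% and 53.6% in those of *Tet/Tet*. The 9 sites of the run that crosses the start (chr12:109540850-109541076) averaged 11.5% (*R1*) and 52.5% (*Tet/Tet*) in ESCs and 26.0% (*R1*) and 13.8% (*Tet/Tet*) in neurons. A run of 5 sites 0.428 kb upstream (chr12:109540573-109540669) averaged 20.2%, 60.8%, 52.7% and 17.0% in that order. A run of 3 sites 0.727 kb upstream averaged 20.1%, 52.3%, 62.7% and 32.3%. Past the start, runs of 3 sites at 0.296 kb and 0.776 kb were at 42.9% and 46.1% in *R1* neurons. In *R1* neurons the level was thus lowest at the start and higher on either side, while in *Tet/Tet* ESCs these 5 runs lay between 51.2% and 60.8%.

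**Figure D3:**
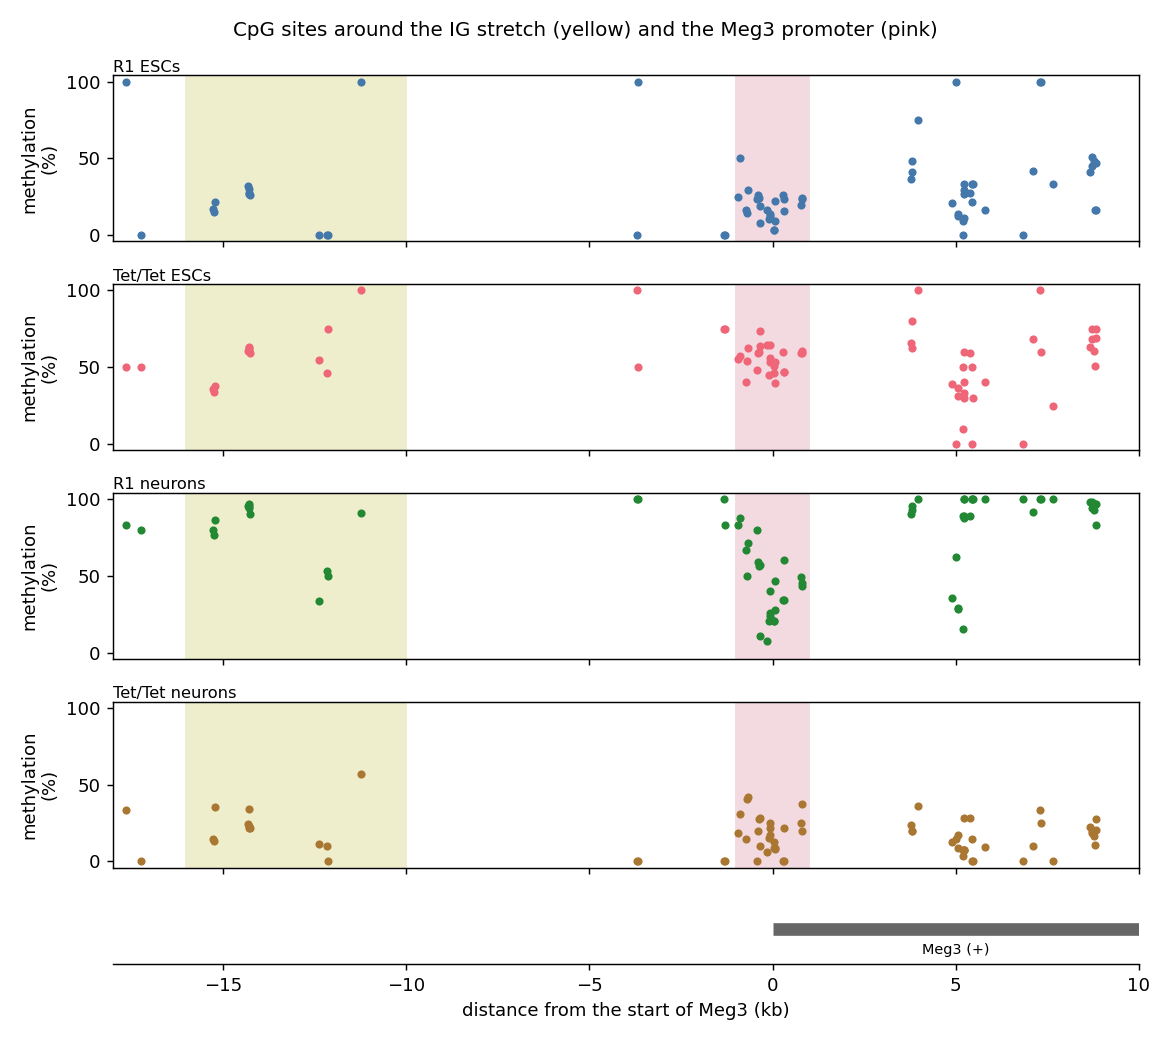
Methylation (%) of CpG sites listed in all 4 libraries from 18 kb upstream to 10 kb downstream of the *Meg3* start, 1 point per site and 1 panel per library. Yellow marks the IG stretch and pink the *Meg3* promoter. In the pink band the points of *R1* ESCs lie at or below 50% and those of *Tet/Tet* ESCs between 39.7% and 73.3%, while those of *R1* neurons spread from 7.69% to 87.5%.

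Among 13602 promoters with at least 10 shared sites, 2.69% were higher by at least 10 points in the *Tet/Tet* than the *R1* ESCs and 0.772% were lower. Of the members, *Dlk1* and *Meg3* had that many sites, *Meg3* was higher, *Dlk1* was neither, and 0 were lower. Only 9 promoters (0.0662%) had a difference as large as that of *Meg3*, itself included. One of the others, *Gm27596*, starts inside the *Meg3* promoter window and shares its sites, and another is *Peg13*, an imprinted noncoding RNA gene. In 1 kb tiles the difference was 37.0 points just upstream of the *Meg3* start and 35.1 just downstream, and 0.742% and 0.877% of all tiles of the genome were at or above these values.

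Between the neuron libraries the *Meg3* promoter fell by 26.6 points from *R1* to *Tet/Tet*, with all 25 sites lower and 17 of them by at least 10 points. These 17 sites make 68%, near the 60.5% of all sites of the genome that were lower by that much. The median tile of the genome fell by 68.6 points in the same comparison, from a higher level. A closer frame is given by the 8703 tiles of the genome that were between 25% and 75% in *R1* neurons, as both *Meg3* promoter tiles were. The median of these tiles was 9.94% (*R1*) and 9.27% (*Tet/Tet*) in ESCs and 7.64% in the neurons of *Tet/Tet*. The *Meg3* promoter tiles were at 20.03% and 17.2% in the ESCs of *R1*, at 57.1% and 52.3% in those of *Tet/Tet*, and at 21.1% and 14.3% in the neurons of *Tet/Tet*. Of the 8703 tiles, 27.1% and 31.5% were at or above the *Meg3* tiles in the ESCs of *R1*, 4.54% and 6.18% in those of *Tet/Tet*, and 5.32% and 15.5% in the neurons of *Tet/Tet*. The *Meg3* promoter therefore stood higher among such tiles in both *Tet/Tet* libraries than in *R1* ESCs.

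The IG stretch was also higher in the *Tet/Tet* than the *R1* ESCs. Its 12 sites averaged 24.6% ± 26.6 (SD over sites, *R1*) and 57.4% ± 18.4 (*Tet/Tet*) in ESCs and 78.5% ± 21.3 (*R1*) and 22.2% ± 14.9 (*Tet/Tet*) in neurons. The difference between the ESC libraries was 32.8 points, with 11 sites higher by at least 10 points and 1 site, 11.2 kb upstream of *Meg3*, equal at 100% in both. Between the neuron libraries all 12 sites were lower in *Tet/Tet* by at least 10 points, where the share over all sites was 60.5%. Their mean difference was 56.3 points. From *R1* ESCs to *R1* neurons 11 of 12 sites were higher, and the mean was higher by 53.9 points. In that comparison 76.9% of all 1 kb tiles of the genome were higher by at least 10 points.

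The stretch was not uniform. Its first 3 shared sites, 15.3 to 15.2 kb upstream of *Meg3*, averaged 17.8% (*R1*) and 35.9% (*Tet/Tet*) in ESCs and 80.8% (*R1*) and 21.3% (*Tet/Tet*) in neurons. The 5 sites of the sequence 14.3 kb upstream and the 3 sites of that 12.4 kb upstream, both printed above, were at 94.5% and 45.6% in *R1* neurons. The middle of the stretch was thus less methylated in *R1* neurons than its upstream part. Each library also listed sites of its own here, 12 (*R1*) and 24 (*Tet/Tet*) in ESCs and 56 (*R1*) and 47 (*Tet/Tet*) in neurons, with means of 24.6%, 78.7%, 72.5% and 11.3%. In *R1* neurons these fell from 97.9% (13 sites) in the tile 15 kb upstream and 100% (10 sites) in the tile 14 kb upstream to 34.2% (16 sites) in the tile 13 kb upstream, and stood at 77.7% (6 sites) in the next tile. That tile of 34.2% is the one with the most motif matches. *Tet/Tet* ESCs had 75.1% there (5 sites), *R1* ESCs 0% (3 sites) and *Tet/Tet* neurons 11.9% (6 sites). No library listed a site between 10 and 6 kb upstream of *Meg3*, so no value can be given for that gap.

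The rest of the intergenic part, from the end of *Dlk1* to 1 kb before *Meg3* without the IG stretch, had 89 shared sites. They averaged 50.4% ± 34.0 (SD over sites, *R1*) and 63.5% ± 26.8 (*Tet/Tet*) in ESCs and 93.8% ± 7.69 (*R1*) and 16.6% ± 16.3 (*Tet/Tet*) in neurons. The ESC difference of 13.1 points was smaller than the SD of the site differences, 37.9 points, and 39 sites were higher by at least 10 points while 10 were lower. It depended on the sites used. Inside *Msp*I fragments of 40 to 220 bp the difference was 7.52 points with an SD of 10.1 (30 sites). Outside them it was 15.9 points with an SD of 45.9 (59 sites), and 31 of those 59 sites were at exactly 0% or 100% in *R1* ESCs, against 0 of the 30. In the *Meg3* promoter the same division gave 41.1 points inside fragments (8 sites) and 34.0 outside (17 sites), and in the IG stretch 28.0 points (6 sites) and 37.6 points (6 sites). A CpG at a CCGG was counted with the fragment that it starts, so the last CpG of a fragment could be counted as outside. The 2 kinds of site are therefore not fully separate. In the IG stretch 4 of the 6 sites outside fragments were at exactly 0% or 100% in *R1* ESCs, against 0 of 17 at the *Meg3* promoter. The others of the 6, at chr12:109525791 and chr12:109526736, each ended a fragment whose earlier sites were counted as inside. The SD of the site differences in the IG stretch was 26.9 points outside fragments and 7.52 inside.

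In *R1* neurons the lowest of these 89 sites was at 66.7% and 3 were between 25% and 75%, whereas in *Tet/Tet* neurons the highest was at 66.7%. Of the runs of at least 3 sites in the interval, the one with the largest ESC difference lay here, with 6 sites 74 kb upstream of *Meg3* (chr12:109466965-109467053) at 36.1% (*R1*) and 95.8% (*Tet/Tet*). All 6 sites were outside *Msp*I fragments of 40 to 220 bp and spread from 0% to 100% in *R1* ESCs. By tile, the highest means were 69.0% (*R1*) and 79.8% (*Tet/Tet*) for ESCs, both 51 kb upstream of *Meg3*, and 97.2% for *R1* neurons, 74 kb upstream. That last tile was at 0% in *Tet/Tet* neurons, the lowest there, and the highest in that library was 29.9%, 36 kb upstream. The lowest tile means were 51.9% for *R1* ESCs, 36 kb upstream, and 60.7% for *Tet/Tet* ESCs and 91.4% for *R1* neurons, both 30 kb upstream. The tiles higher in the *Tet/Tet* than the *R1* ESCs were those 74, 69, 51 and 36 kb upstream, by 22.2, 11.3, 10.7 and 19.8 points. Those 74 and 51 kb upstream held only sites outside *Msp*I fragments of 40 to 220 bp, 6 and 7 of them. In *R1* ESCs 2 and 4 of these were at 100%, and 2 and 1 were at 0%. The ESC levels between the genes thus varied more by place than those of *R1* neurons did.

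**Figure D4:**
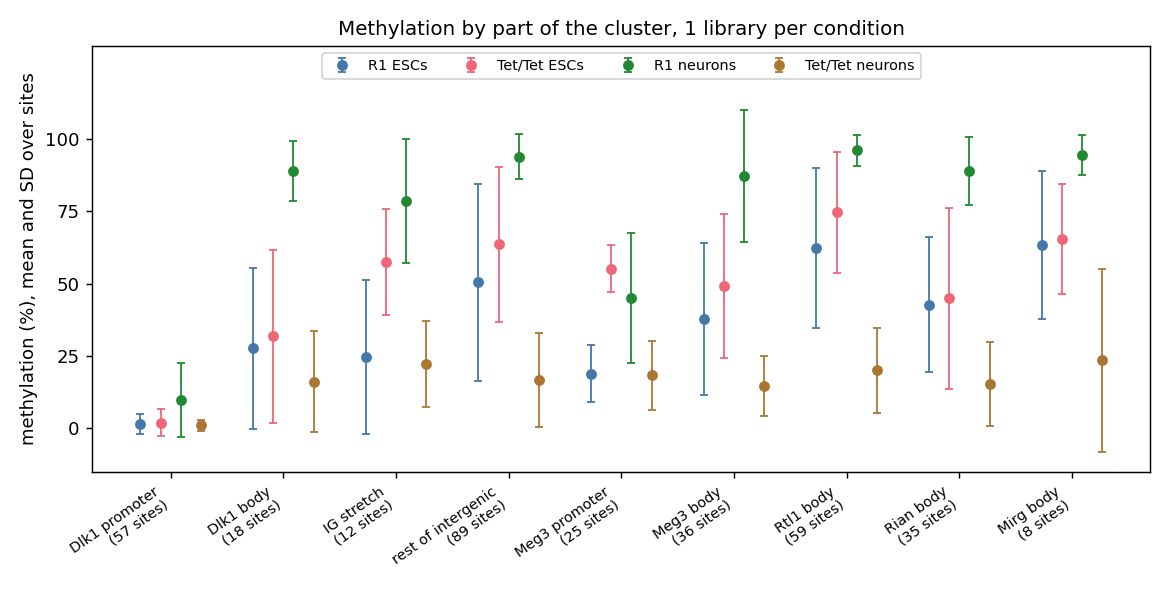
Mean methylation (%) of the shared CpG sites by part of the cluster, with bars for the SD over sites, which can reach past 0 and 100, and 1 colour per library. The numbers of sites stand under each part. *R1* neurons are highest in every part but the *Meg3* promoter, where *Tet/Tet* ESCs are at 55.2% and *R1* neurons at 45.0%.

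*Dlk1*, a transmembrane protein related to Notch ligands (ENSMUSG00000040856.17, chr12:109452823-109463336, forward strand), was almost unmethylated just past its start in 3 of the 4 libraries. All shared sites of its promoter window lay inside the gene, at chr12:109453242-109453711. Of the 9 CpGs in its RefSeq promoter sequence, 0 were listed in all 4 libraries, so the level at and before the start is unknown. Its 57 shared promoter sites averaged 1.62% ± 3.41 (SD over sites, *R1*) and 1.96% ± 4.64 (*Tet/Tet*) in ESCs and 9.83% ± 12.6 (*R1*) and 1.04% ± 1.92 (*Tet/Tet*) in neurons. No site differed by 10 points between the ESC libraries. In *R1* neurons 19 of 57 sites (33.3%) were higher by at least 10 points than in *R1* ESCs, and the highest reached 57.1%. Among 1 kb tiles of the genome, a different unit, 76.9% were higher by that much in this comparison. The 18 sites of the *Dlk1* body averaged 27.6% ± 27.8, 31.8% ± 29.9, 88.8% ± 10.2 and 16.2% ± 17.3 in the same order. The body of *Dlk1* was thus near the other bodies in *R1* neurons and the lowest of the 5 in both ESC libraries.

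*Rtl1* (ENSMUSG00000085925.3, chr12:109589193-109600330, reverse strand) is a coding gene derived from a retrotransposon, needed in the placenta. Its body had 59 shared sites, 58 of them in exons, with means of 62.3% ± 27.5 (SD over sites, *R1*) and 74.6% ± 20.9 (*Tet/Tet*) in ESCs and 95.9% ± 5.39 (*R1*) and 20.1% ± 14.7 (*Tet/Tet*) in neurons. The mean was 12.3 points higher in the *Tet/Tet* than the *R1* ESCs, with 31 sites higher and 6 lower by at least 10 points. Of its 6 tiles with enough sites, those 48, 49, 50 and 53 kb past the *Meg3* start were higher by 21.7, 15.1, 13.1 and 27.3 points, and the one 51 kb past it was lower by 16 points (81.7% against 65.7%). That lower tile rests on 7 sites outside *Msp*I fragments of 40 to 220 bp, 5 of which were at 100% in *R1* ESCs, and its 1 site inside a fragment was higher in *Tet/Tet* ESCs, by 21.8 points. The highest gene tile in *R1* ESCs was that tile of 81.7%, and the highest in the other libraries was the next one, at 89.6%, 98.1% and 23.4%. No *Rtl1* promoter site was shared by the 4 libraries. *R1* neurons listed 5 sites there, all at 100%, and *Tet/Tet* neurons 4 with a lower mean.

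The body of *Meg3* had 36 shared sites at 37.8% ± 26.4 (SD over sites, *R1*) and 49.1% ± 24.9 (*Tet/Tet*) in ESCs and 87.0% ± 22.8 (*R1*) and 14.7% ± 10.3 (*Tet/Tet*) in neurons. The ESC difference was 11.3 points, with 22 sites higher and 4 lower by at least 10 points. It varied along the gene. The tile 8 kb past the start was higher by 28.2 points, from 37.8% to 66.0%, whereas the tile 5 kb past it was higher by 7.20 points. A run of 3 sites at 5.02 kb (chr12:109546018-109546074) was at 40.1% in *R1* neurons, far below the mean of the body.

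*Rian*, the host gene of many small nucleolar RNAs (ENSMUSG00000097451.10, chr12:109603940-109661716, forward strand), differed little on average between the ESC libraries. Its 35 shared body sites averaged 42.7% ± 23.2 (SD over sites, *R1*) and 45.0% ± 31.2 (*Tet/Tet*) in ESCs and 88.8% ± 11.9 (*R1*) and 15.4% ± 14.5 (*Tet/Tet*) in neurons. The difference of 2.29 points joined 12 sites higher and 9 sites lower by at least 10 points. All 7 shared sites of the tile 67 kb past the *Meg3* start were in 1 run, with means of 18.3% (*R1*) and 3.60% (*Tet/Tet*) in ESCs and 85.5% (*R1*) and 8.04% (*Tet/Tet*) in neurons. This tile, by 14.7 points, and the *Rtl1* tile were the 2 tiles of the interval that were lower in *Tet/Tet* ESCs. The *Rian* tile was lower over its 6 sites inside *Msp*I fragments, and its 1 site counted as outside ended the same fragment. Its sites reached at most 24.3% in the ESCs of *R1* and 8.45% in those of *Tet/Tet*. Of all tiles of the genome, 95.9% had an ESC difference at or above that of this tile. Its sequence (mm10, chr12:109608071-109608202, forward strand, shared CpGs in capitals) is shown because its direction is opposite to that of the *Meg3* promoter.
Rian, 67.1 kb past the Meg3 start: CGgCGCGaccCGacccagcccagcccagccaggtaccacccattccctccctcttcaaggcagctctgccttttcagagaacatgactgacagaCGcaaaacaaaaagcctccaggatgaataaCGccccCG

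*Mirg*, a host gene of microRNAs (ENSMUSG00000097391.8, chr12:109729764-109749460, forward strand), had only 8 shared body sites. Their means were 63.3% ± 25.6 (SD over sites, *R1*) and 65.3% ± 18.9 (*Tet/Tet*) in ESCs and 94.3% ± 6.98 (*R1*) and 23.4% ± 31.4 (*Tet/Tet*) in neurons, and the ESC difference of 2.05 points was far within that spread. The 2 shared promoter sites were at 33.3% and 75% in *R1* ESCs and both at 100% in *Tet/Tet* ESCs and *R1* neurons. They are too few for a level of the promoter. *Rian* had no shared promoter site.

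Over all 5 bodies together, 156 sites averaged 48.3% ± 29.0 (SD over sites, *R1*) and 56.6% ± 29.6 (*Tet/Tet*) in ESCs and 91.4% ± 13.7 (*R1*) and 17.5% ± 15.4 (*Tet/Tet*) in neurons. The ESC difference of 8.35 points was below 10, with 71 sites higher and 23 lower by at least 10 points. In *R1* ESCs the order of the bodies from high to low was *Mirg*, *Rtl1*, *Rian*, *Meg3* and *Dlk1*, and neighbours in it differed by less than their SD over sites. In *Tet/Tet* ESCs it was *Rtl1*, *Mirg*, *Meg3*, *Rian* and *Dlk1*. In *R1* neurons the 5 bodies lay between 87.0% and 95.9%, and in *Tet/Tet* neurons between 14.7% and 23.4%. The bodies thus differed from each other mainly in ESCs.

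The cluster is rich in small RNAs. GENCODE M21 places 66 microRNA and 23 small nucleolar RNA genes in the interval, 15 of the former within *Mirg* and 13 of the latter within *Rian*. The RefSeq table held 57 microRNA hairpins there, of which 26 contained a site listed in any library and 3 a site listed in all 4. Mir431 (chr12:109590447-109590537) and Mir433 (chr12:109591715-109591838) lie within *Rtl1* on the opposite, forward strand, and their mature RNAs are known to match the *Rtl1* transcript. Their mature sequences (RefSeq, GRCm38) are given because these hairpins carried 5 shared sites each, with the seed, bases 2 to 8, in capitals. No seed was shared between them.
miR-431-5p: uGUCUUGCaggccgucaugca
miR-431-3p: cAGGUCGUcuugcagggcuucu
miR-433-5p: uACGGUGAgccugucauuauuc
miR-433-3p: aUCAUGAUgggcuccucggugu

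The 5 sites in the Mir431 hairpin averaged 67.3% (*R1*) and 87.8% (*Tet/Tet*) in ESCs and 98.9% (*R1*) and 24.3% (*Tet/Tet*) in neurons. The 5 sites in Mir433 averaged 68.4%, 81.4%, 93.3% and 21.8% in that order. The single shared site of Mir673, between *Meg3* and *Rtl1*, was at 58.9%, 62.8%, 97.1% and 22.7%. In ESCs both hairpins within *Rtl1* were above the mean of its body, and all 3 hairpins were lowest in *Tet/Tet* neurons.

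Upstream of *Dlk1*, the 35 shared sites outside the promoter averaged 16.4% (*R1*) and 19.5% (*Tet/Tet*) in ESCs and 45.0% (*R1*) and 7.33% (*Tet/Tet*) in neurons. The mean of *R1* neurons joined unlike runs there, from 9.02% (11 sites, chr12:109449903-109450093) to 97.5% (4 sites, chr12:109448647-109448675). One tile there, 93 kb before the *Meg3* start, was higher in the *Tet/Tet* than the *R1* ESCs, by 14.4 points. Within *Dlk1* the tile 82 kb before the *Meg3* start was higher by 22.7 points over 7 sites. Of these, 2 were at 0% in *R1* ESCs and at 100% and 50% in *Tet/Tet* ESCs. The run of 11 sites that includes those of this tile was higher by 6.68 points. Between *Meg3* and *Rtl1*, 22 sites were at 49.4% and 50.2% in *R1* and *Tet/Tet* ESCs, though 1 tile 44 kb past the *Meg3* start was higher by 12 points. Between *Rian* and *Mirg*, 19 sites were at 44.7% and 51.4%. Past *Mirg*, a run of 9 sites (chr12:109749845-109749971) stayed low, at 7.90% (*R1*) and 5.35% (*Tet/Tet*) in ESCs and 24.3% (*R1*) and 6.03% (*Tet/Tet*) in neurons. Outside the *Meg3* promoter and the IG stretch, the higher tiles in *Tet/Tet* ESCs were therefore spread over both sides of *Meg3*.

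The promoters of the nearest genes on either side that were listed for comparison were low in all libraries. *Wars* and *Wdr25*, which share their promoter sites, were at 3.79% (*R1*) and 3.46% (*Tet/Tet*) in ESCs and 7.58% (*R1*) and 3.01% (*Tet/Tet*) in neurons. In the same order *Begain* was at 3.58%, 2.99%, 7.54% and 2.79%. *Dio3*, an imprinted thyroid hormone deiodinase gene beyond *Mirg*, was at 3.47%, 2.53%, 4.51% and 2.76%. None of these differed by 10 points between any pair of libraries, unlike *Meg3*.

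**Figure D5:**
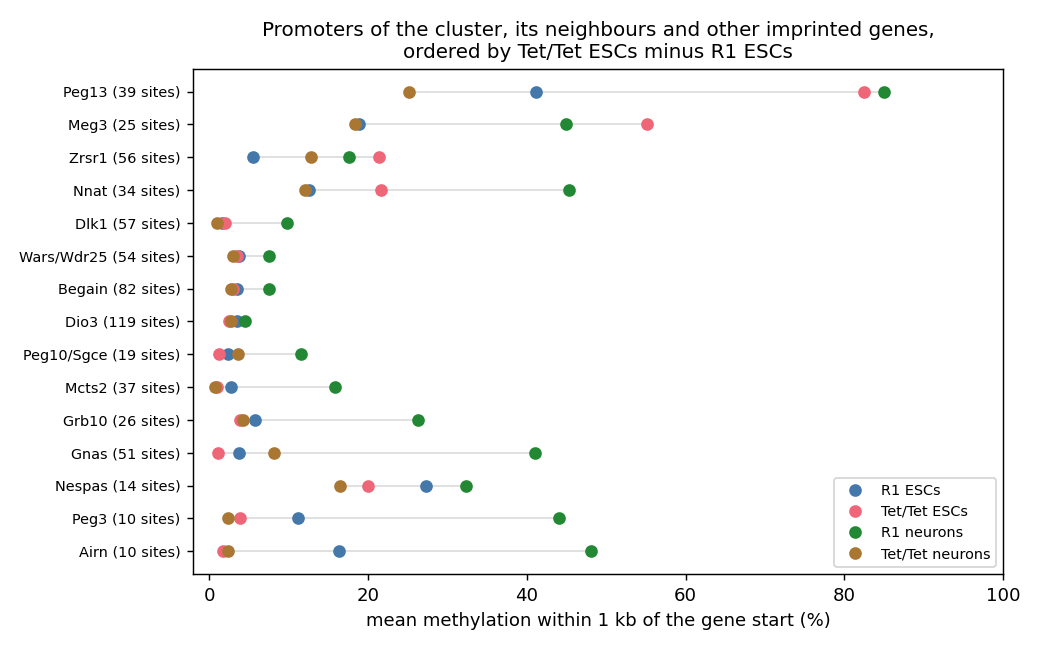
Mean methylation (%) within 1 kb of the gene start for promoters with at least 10 shared sites, with 1 point per library, for *Dlk1* and *Meg3*, neighbours of the cluster and other imprinted genes, ordered by *Tet/Tet* ESCs minus *R1* ESCs. *Meg3* and *Peg13* show the largest rise between the ESC libraries, and *Airn* the largest fall, from 16.3% to 1.75%.

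Of 18 other imprinted genes, 11 had promoters with at least 10 shared sites, which make 10 distinct promoters, since *Peg10* and *Sgce* share theirs. Of the other 7 genes, 6 lie on chromosomes 7, 9 and 10, where *Tet/Tet* neuron values around them were not analysed here. The median of the 10 promoters was 8.49% (*R1*) and 3.90% (*Tet/Tet*) in ESCs and 36.7% (*R1*) and 6.20% (*Tet/Tet*) in neurons. *Peg13* was higher in the *Tet/Tet* than the *R1* ESCs, at 82.4% against 41.2%, as was *Zrsr1*, a gene inside an intron of *Commd1*, at 21.4% against 5.55%. *Airn*, the noncoding RNA gene of the *Igf2r* domain, was lower, at 1.75% against 16.3%. The other 7 differed by less than 10 points. *Peg13* rose to a high level and *Zrsr1* stayed low, so among these imprinted promoters *Meg3* was the one between 25% and 75% in *Tet/Tet* ESCs.

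Promoters that start close to that of *Meg3*, such as *Gm27596*, were left out of a search for like promoters. Of the rest, the 5 most like that of *Meg3* over the 4 library means were *Rbbp8nl*, *Dcc*, *Gm27940*, *AC163221.1* and *Asic2*. Their mean absolute difference from the *Meg3* promoter was 9.17, 9.71, 10.5, 10.9 and 11.1 points. *Rbbp8nl*, the closest, was at 24.9% (*R1*) and 40.5% (*Tet/Tet*) in ESCs and 55.9% (*R1*) and 13.2% (*Tet/Tet*) in neurons. In each of the 5 *R1* neurons were the highest library, whereas at *Meg3* the highest was *Tet/Tet* ESCs.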

How the data were processed

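RRBS was performed on 4 samples, ESCs and neurons of *R1* and of *Tet/Tet*, 1 of each, mapped to groups by their titles. The authors trimmed reads with TrimGalore 0.6.4, checked them with FastQC 0.11.8, mapped them to mm10 with Bismark 0.19.0 and called CpGs with MethylDackel 0.3.0, versions as given in the submitters' notes. They deposited the percent methylation per CpG, without normalization between libraries and without read numbers, so the Fisher tests of the study could not be run, and intervals and read minimums were not used.

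From these percentages, unweighted means over sites shared by all 4 libraries were taken with Python 3.11.15, numpy 2.4.6 and pandas 2.3.3, and figures were drawn with matplotlib 3.10.9. Genes were those of GENCODE M21, a promoter was 1 kb on both sides of a gene start, and tiles of 1 kb needed at least 5 sites. Differences of at least 10 points were counted, and no p-value was computed. The genes named were the 5 members, 4 neighbours, 18 imprinted genes and the 5 promoters most like that of *Meg3*. The tiles named were every tile counted in the ESC comparison and the highest and lowest of each part. Members and lists were chosen with earlier results of these data known. *Gm27596* and single runs of sites were named after their values were seen.

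The alternatives were the sites used (listed in both libraries, each library's own, or inside *Msp*I fragments of 40 to 220 bp), medians, 100 bp bins, other borders of the parts, other site minimums, a difference of 20 points and shifted tiles. With no replicates and no depth, a level was said to move where it changed by at least 10 points or crossed 10 points, and a count where it changed by over 1.5 times. The *Tet/Tet* neuron values of chromosomes 8, 9 and parts of 7 and 10 were not analysed here, so shares over the genome lack these regions, and the interval is untouched. The labels give a column kit for neuron DNA, while the methods text gives phenol and chloroform for all.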

Additional observations from a re-analysis of the deposited data

Results flagged for a closer look

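In each of the 4 parts of the cluster *Tet/Tet* was above *R1* in ESCs and below it in neurons. The difference in neurons less that in ESCs was -89.0 points in the IG stretch, -90.2 points in the rest of the intergenic part, -62.9 points in the *Meg3* promoter and -82.2 points in the member gene bodies. With 1 library per condition these differences were not tested. The *Tet/Tet* neuron library was low over the whole genome, and the cell types were sequenced in separate projects, whose effects cannot be told apart.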

How the results depend on the processing

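No difference of a part changed sign under any alternative. Of 96 level values under alternatives, 81 stayed within the limits given in the methods and 15 moved. In the IG stretch, each library's own sites gave 54.1 points for the ESC pair and -67.4 from *Tet/Tet* ESCs to neurons, where sites listed in both libraries gave -51.8. For the neuron pair there, sites listed in both gave -67.4, *Msp*I fragments -67.8 and the median -66.6, and from *R1* ESCs to neurons fragments gave 64.9 and the median 64.6. In the rest of the intergenic part the ESC difference fell below 10 points with sites listed in both (8.62) and with fragments (7.52). At the *Meg3* promoter the neuron difference was -13.4 with each library's own sites and -15.01 with fragments, and its ESC difference did not move. For the gene bodies the ESC difference rose above 10 points with fragments (11.2) and the median (11.97), and the neuron difference was -55.2 over whole genes. Tile counts followed the number of tiles that could be used. With at least 3 sites, at least 10 sites and fragments only, 57, 8 and 12 tiles could be used. Of these, the tiles higher in *Tet/Tet* ESCs numbered 26, 4 and 5, and those lower 5, 0 and 1. Those lower in *Tet/Tet* than *R1* neurons numbered 56, 8 and 10. The tiles higher in *R1* neurons than *R1* ESCs numbered 53, 8 and 10. Those lower in *Tet/Tet* neurons than *Tet/Tet* ESCs numbered 48, 5 and 7. With a difference of 20 points, 8 of 30 tiles were higher and 0 lower in *Tet/Tet* ESCs. With sites listed in both libraries, 75 of 76 tiles were lower in the neuron pair and 39 of 46 from *Tet/Tet* ESCs to neurons. Shares over the genome under these settings are not given here. The cause of the other shifts was not tested. No paired analysis was possible because each condition had 1 library, which also leaves no replicate to leave out. The unknown depth limits every single site, and values of 0% or 100% most.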

Other observations

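Each library listed a different number of CpGs in the interval, 511 (*R1*) and 669 (*Tet/Tet*) in ESCs and 1305 (*R1*) and 1247 (*Tet/Tet*) in neurons, with means over its own sites of 38.5%, 51.5%, 82.3% and 13.9%. Of the 432 shared sites, the number between 25% and 75% was 191 (*R1*) and 222 (*Tet/Tet*) in ESCs and 54 (*R1*) and 87 (*Tet/Tet*) in neurons. Between 2 and 1 kb upstream of *Meg3*, outside the promoter window, *R1* ESCs listed 8 sites at a mean of 0% and *Tet/Tet* ESCs 5 sites at 70%, while *R1* neurons listed 14 at 91.1% and *Tet/Tet* neurons 12 at 23.6%. In the tile 14 kb upstream of *Meg3*, *R1* ESCs listed no site and *Tet/Tet* ESCs 5 sites, all at 100%.

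At sites inside the motif TGCCGC in the IG stretch, *R1* neurons listed 2 sites, at 0% and 100%, *Tet/Tet* ESCs 1 site at 100% and *Tet/Tet* neurons 2 sites at 0%. In the tile at the end of *Mirg* all shared sites lay just past the gene. Their mean was 29.3% in *R1* neurons, 9.61% (*R1*) and 7.55% (*Tet/Tet*) in ESCs and 8.02% in *Tet/Tet* neurons. In *R1* neurons 1 of these sites was at 75%, and the run of the other 9 averaged 24.3%.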
